A study of Mus musculus with 3 samples.

Results

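The semaphorins, their plexin and neuropilin receptors, the ephrins and the Eph receptors were examined as 1 gene set in single-cell RNA-seq of mouse brain after traumatic brain injury (TBI). A gene belonged to the set when its symbol was that of a class 3 to 7 semaphorin, a plexin, Nrp1, Nrp2, an ephrin or an Eph receptor, or a transcript named after one, and it had at least 50 unique molecular identifiers (UMIs, each standing for 1 captured RNA molecule) over the 3 libraries. Of 56 matching symbols, 48 reached that number, out of 55357 genes listed, of which 19087 had as many UMIs. They comprised 25 ligands (18 semaphorins and 7 ephrins), 21 receptors (9 plexins, 2 neuropilins and 10 Eph receptors) and 2 antisense transcripts of Plxna4. The 8 genes below the minimum were Epha1 with 33 UMIs, Sema4f with 23, Sema3a with 21, Efna3 with 20, Epha10 with 12, Epha6 with 3, Epha8 with 1 and Plxna4os3 with 0. The members nearest above it were Plxna4os2 with 60 UMIs, Sema3g with 61 and Sema3d with 64, while Plxnb2 had the most, 21403, ahead of Sema4b with 16353, Sema4d with 14266 and Nrp1 with 11697.

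Semaphorins are secreted or membrane-bound proteins first known for steering growing axons. Class 3 semaphorins are secreted and mostly bind a neuropilin, which signals through an A-type plexin. Most of the class 4 to 6 semaphorins span the membrane and bind plexins directly, and Sema7a is held on the membrane by a lipid anchor and binds Plxnc1 and integrins. Ephrins are bound to the cell surface too, the A type by a lipid anchor and the B type by a transmembrane stretch, so that an ephrin and an Eph receptor tyrosine kinase meet only where cells touch and can signal into both cells. In adult brain these families are known from synapses, myelin, blood vessels, glial boundaries and migrating neuroblasts.

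The 3 libraries were made from tissue labelled as left perilesional brain of male C57BL/6 mice aged 6 to 8 weeks. One came from sham-operated mice, one from mice with TBI given phosphate-buffered saline (PBS) for 3 days, and one from mice with TBI given interleukin-25 (IL-25), 1 µg per mouse within 30 min of injury and then daily for 3 days. Cells were freed with collagenases and neutral protease and, after lysis of red cells and removal of dead ones, loaded on a 10x Chromium 3′ kit, so the levels are those of the cells that survived this. No source used here says how many animals entered a library. Each condition is 1 library, so no difference between conditions has a replicate check, no p-value is given, and every interval covers counting error only.

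The sham, TBI+PBS and TBI+IL-25 libraries held 8939, 10643 and 14222 barcodes, against 8000 cells expected in the labels, and 8710, 10299 and 13532 were kept as cells, with a median of 4111, 4666 and 3841 UMIs. The libraries held 39536447, 58148289 and 61372408 UMIs in all. Pairs of libraries shared 24 to 39 barcodes. The TBI+IL-25 library stood apart in its ribosomal RNA, which took 2.01% of UMIs against 0.175% in sham and 0.203% in TBI+PBS. Cells were clustered without the 48 guidance genes and classes were called from marker genes, each class being "like" the type named. Microglia-like cells made up 57.4%, 44.6% and 41.0% of cells in the order sham, TBI+PBS and TBI+IL-25, and astrocyte-like cells 37.7%, 40.0% and 39.0%. The clusters that held most of either class differed between libraries. Of microglia-like cells, cluster 0 took 92.5% in sham, cluster 2 took 44.9% with PBS and cluster 5 took 30.0% with IL-25. Of the astrocyte-like cells, 43.4% in sham were in cluster 6, 34.7% with PBS in cluster 9 and 56.5% with IL-25 in cluster 1. A cluster mostly of 1 library may be that library and not a cell state. Ratios in shared clusters are therefore given beside the class ratios where they differ. Shared clusters had at least 20 cells of each of the 2 libraries compared and at most 80% of them from 1. Their UMIs were summed over all shared clusters of a class, so the mix of clusters still enters these ratios. Of the 3274 TBI+PBS and 2596 TBI+IL-25 microglia-like cells in shared clusters, cluster 2 held 2065 and 554. A shallow cluster with astrocyte markers and a median of 804 UMIs, which held 0.0115%, 3.99% and 10.5% of the cells, was left unnamed.

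Guidance genes were divided among cell types. Levels are given as CPM (counts per 1000000), the UMIs of a gene scaled to the same total for every class in a library, a scale that counts molecules and is not divided by gene length. For classes with at least 20 cells in a library, the class with the highest level was the same in every library that could be compared for 29 of the 48 members. The other statements of a highest class rest on the mean over the libraries that held enough cells of a class, 1 or 2 of them for the rarer classes. That class was the same for 46 to 48 of the 48 members under other clusterings and cell filters, and for 35 when each cell was assigned by its own marker score. By the mean over libraries, 7 ligands were highest in neuroblast-like cells, 6 in endothelial-like, 5 in oligodendrocyte-like, 2 in choroid plexus-like cells and 1 each in 5 other classes. Of the receptors, 5 were highest in neuroblast-like cells, 4 in endothelial-like and 3 in astrocyte-like cells. The same counts were not made for all genes, so they do not set guidance genes apart from others. Some were near ties: Efna4 was at 19.3 CPM in neuroblast-like and 19.2 CPM in fibroblast-like cells. Sema6a was at 153 CPM in oligodendrocyte-like and 147 CPM in endothelial-like cells.

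**Figure D1:**
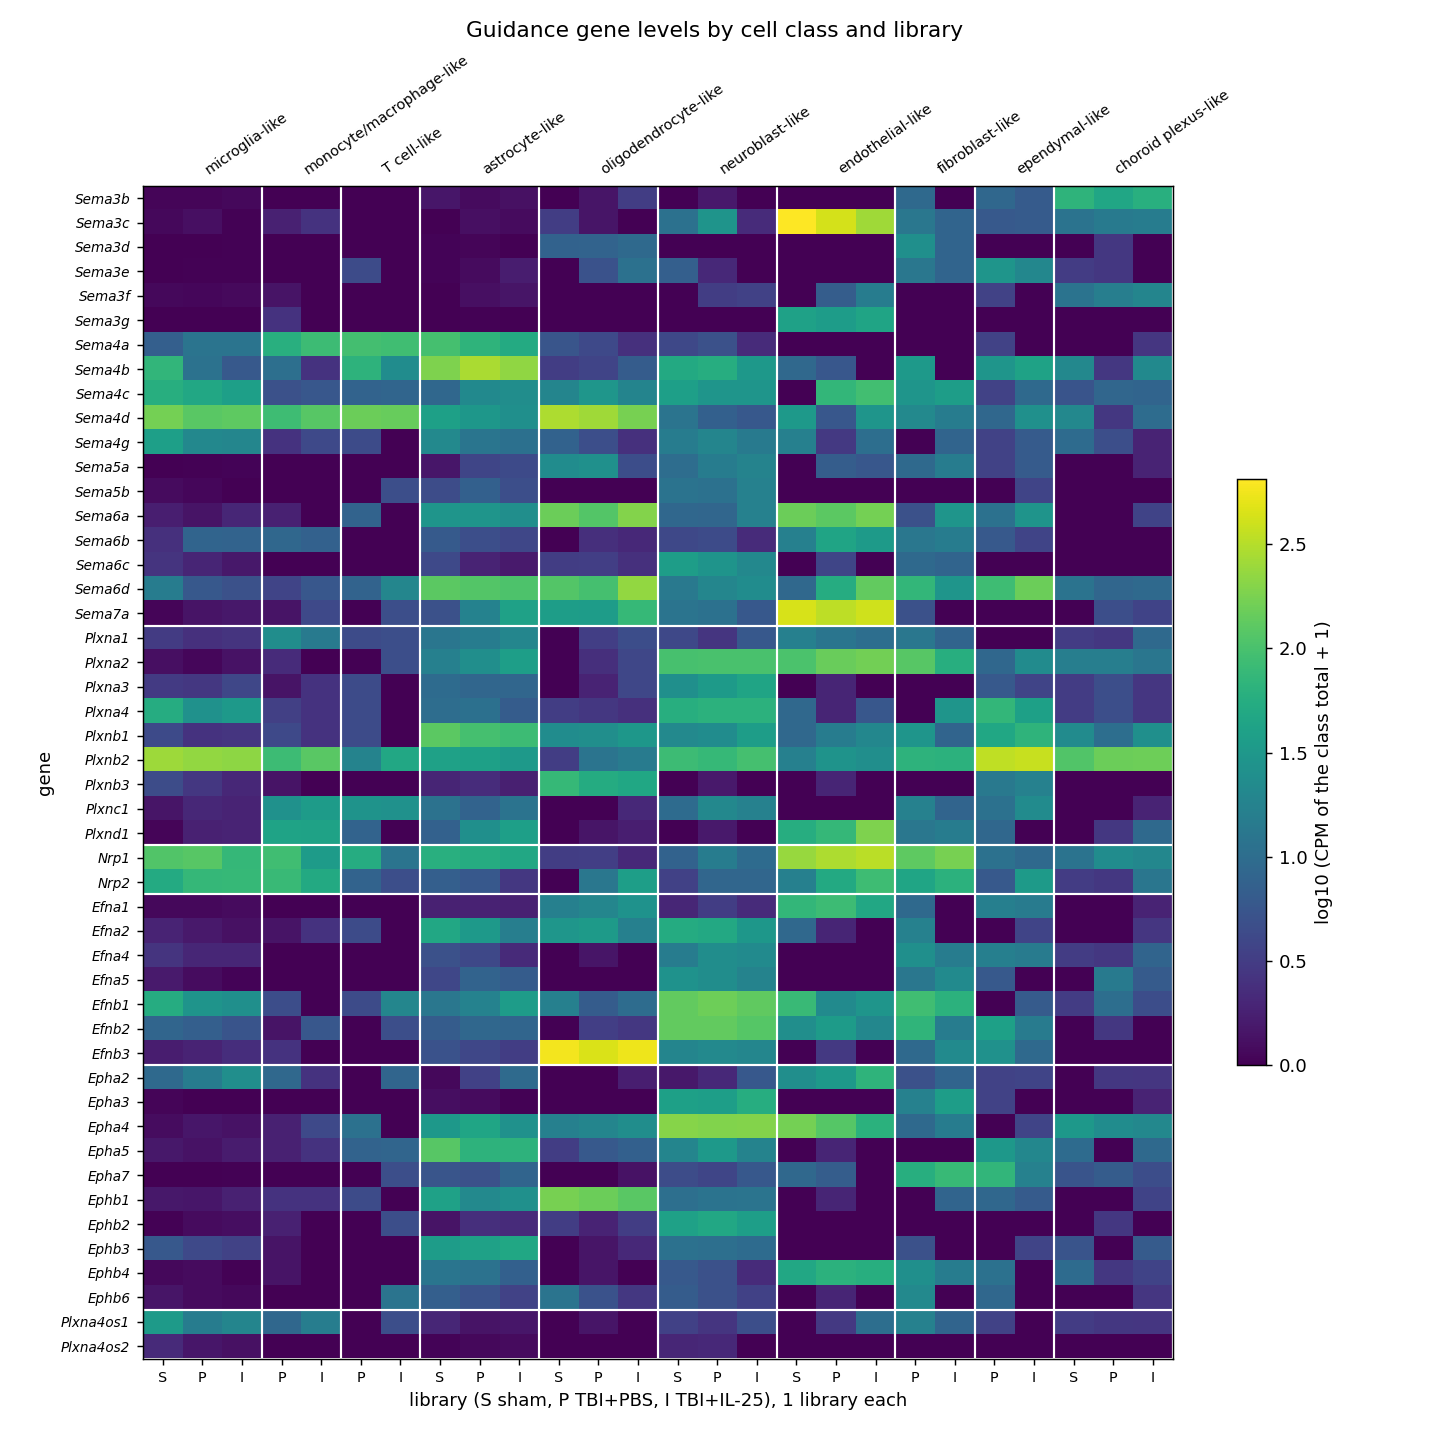
Level of the 48 guidance genes by named cell class and library with at least 20 cells, as the base-10 logarithm of CPM + 1. Rows run from semaphorins, plexins and neuropilins to ephrins, Eph receptors and antisense transcripts. Columns are marked S for sham, P for TBI+PBS and I for TBI+IL-25, and B cell-like and neutrophil-like cells are left out. Sema3c and Sema7a stand out in the endothelial-like columns, Efnb3 in the oligodendrocyte-like columns and Epha4, Efnb1 and Efnb2 in the neuroblast-like columns.

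Among the secreted class 3 semaphorins, Sema3c marked endothelial-like cells (cluster 21, with 36, 219 and 49 cells in sham, TBI+PBS and TBI+IL-25), and Sema3g was mostly found there. Sema3c, a ligand of neuropilin and plexin complexes known from vascular and cardiac development, was at 648, 430 and 255 CPM in that order of libraries, and its mean was 34.0 times that of the next class. Endothelial-like cells gave 73.2%, 85.1% and 66.7% of the Sema3c UMIs of the 3 libraries. Sema3g, a Nrp2 ligand, was lower, at 39.5, 35.2 and 42.6 CPM, and 48.7 times the next class. Sema3b was highest in choroid plexus-like cells at 66.9, 44.6 and 59.1 CPM, 8.63 times the next class by the mean, and Sema3f was also highest there at a mean of 14.5 CPM. By the mean over libraries, Sema3e, the ligand of Plxnd1, was highest in ependymal-like cells (23.7 CPM) and Sema3d in fibroblast-like cells (15.6 CPM). That Sema3d mean rests on few counts, with 6 UMIs in TBI+PBS. Oligodendrocyte-like cells were its highest class in sham and TBI+IL-25. They gave 75%, 62.5% and 91.7% of its 4, 24 and 24 UMIs in the 3 libraries. Microglia-like cells held almost none of this class of ligand: the 6 genes summed to 0.407, 0.556 and 0.429 CPM there against 687, 471 and 312 CPM in endothelial-like cells.

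The membrane semaphorins of class 4 made up most of the ligand RNA of microglia-like cells and were also found in the other glia. Sema4d, which acts through Plxnb1 and Plxnb2 and is known to hold back oligodendrocyte maturation, was at 289, 257 and 172 CPM in oligodendrocyte-like cells of sham, TBI+PBS and TBI+IL-25, the highest class in the first 2, and at 232 CPM in the 46 neutrophil-like cells of TBI+IL-25. Microglia-like cells had 169, 124 and 128 CPM of Sema4d and T cell-like cells 149 and 144 CPM in the 2 injured libraries. Sema4b was highest in astrocyte-like cells at 186, 286 and 220 CPM, and these cells gave 64.7%, 92.5% and 93.2% of its UMIs. Sema4a was at 95.9, 67.2 and 51.8 CPM in astrocyte-like cells, at 91.5 and 88.4 CPM in T cell-like cells of the injured libraries, and at 203 CPM in the neutrophil-like cells of TBI+IL-25, the 1 library with enough of them. Sema4g was highest in microglia-like cells at a mean of 25.2 CPM. The 5 class 4 members together reached 339, 213 and 201 CPM in microglia-like cells, out of 423, 264 and 246 CPM for all ligands.

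Among the other semaphorins, levels per cell class and shares of the UMIs ranked the classes differently. Sema6a, a plexin A ligand, was at 150, 114 and 194 CPM in oligodendrocyte-like cells and at 150, 126 and 166 CPM in endothelial-like cells, so neither class was above the other in every library. Sema6d was at 114, 95.7 and 229 CPM in oligodendrocyte-like cells and at 127, 113 and 106 CPM in astrocyte-like cells, which gave 82.2%, 82.0% and 69.8% of its UMIs. Sema7a was highest in endothelial-like cells, at 434, 336 and 407 CPM, which was 8.03 times the next class by the mean. By the mean over libraries, Sema5a (17.0 CPM) was highest in oligodendrocyte-like cells. Sema5b (12.3) and Sema6c (27.7) were highest in neuroblast-like cells and Sema6b (30.6) in endothelial-like cells.

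Among the ephrins, Efnb3 marked oligodendrocyte-like cells and the other B ephrins neuroblast-like cells. Efnb3, a ligand of Epha4 known as a myelin-associated inhibitor of axon growth, was at 571, 448 and 548 CPM in oligodendrocyte-like cells in sham, TBI+PBS and TBI+IL-25, and its mean was 27.7 times that of the next class. Efnb1 was at 134, 154 and 131 CPM and Efnb2 at 134, 136 and 117 CPM in neuroblast-like cells (cluster 15, with 248, 259 and 140 cells). Efna2, Efna4 and Efna5 were also highest there by the mean over libraries, at 43.7, 19.3 and 22.1 CPM, although Efna4 was at 19.2 CPM in fibroblast-like cells. Efna1, an early response gene of inflamed endothelium, was highest in endothelial-like cells at 71.1, 84.6 and 47.3 CPM.

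Of the plexins and neuropilins, Plxnb2 was the most abundant guidance receptor of microglia-like cells, at 249, 227 and 214 CPM in sham, TBI+PBS and TBI+IL-25. Microglia-like cells gave 84.4%, 79.7% and 83.1% of the Plxnb2 UMIs, although the level in the few ependymal-like cells was higher, at 350 and 375 CPM in the 2 injured libraries. Nrp2 came mostly from microglia-like cells as well, at 51.8, 74.4 and 76.2 CPM and 89.5%, 81.9% and 90.1% of its UMIs. Nrp1, which binds both class 3 semaphorins and vascular endothelial growth factor, was highest in endothelial-like cells at 237, 295 and 331 CPM, and microglia-like cells had 110, 120 and 72.9 CPM. The vascular plexin Plxnd1 was also highest in endothelial-like cells, at 55.3, 74.2 and 184 CPM, as was Plxna2 at 103, 145 and 161 CPM. Plxna2 was close to constant in neuroblast-like cells, at 98.4, 99.3 and 98.8 CPM. Plxnb1 was highest in astrocyte-like cells at 127, 95.7 and 82.7 CPM, and Plxnb3 in oligodendrocyte-like cells at 76.1, 52.9 and 45.9 CPM. By the mean over libraries, Plxna3 (33.7 CPM) and Plxna4 (61.1) were highest in neuroblast-like cells, and Plxna1 (17.9) and Plxnc1 (29.8) in monocyte/macrophage-like cells. The 2 antisense transcripts of Plxna4 lie on the same locus and were counted as genes of their own. How strand was used in counting is not given in the sources used here. Whether some of their reads were counted to Plxna4, or the reverse, is therefore not known.

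Among the Eph receptors, Epha4, which binds ephrins of both types, had the highest level in any class, 199, 187 and 193 CPM in neuroblast-like cells. Ephb2 was concentrated in those cells, at 40.1, 47.1 and 37.1 CPM and 22.5 times the next class by the mean, and Epha3 was highest there too (mean 43.8 CPM). Astrocyte-like cells gave 97.1%, 93.0% and 93.0% of the Epha5 UMIs, at 121, 64.7 and 65.0 CPM, and were highest for Ephb3 at 34.8, 39.6 and 45.8 CPM. Ephb1 was at 170, 150 and 123 CPM in oligodendrocyte-like cells, 5.24 times the next class by the mean. Ephb4, the partner of Efnb2 known from vein identity, was highest in endothelial-like cells at 47.4, 62.8 and 56.7 CPM. Epha7 was at 56.5 and 77.8 CPM in fibroblast-like cells and at 69.4 and 16.4 CPM in ependymal-like cells of the 2 injured libraries, so its highest class differed between them. Ephb6 had a different highest class in each library, but only 117, 118 and 75 UMIs over all kept cells. Epha2 was highest in endothelial-like cells in each library, at 23.7, 31.4 and 66.2 CPM, and was at 57.9 CPM in the neutrophil-like cells of TBI+IL-25.

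The balance of ligand and receptor RNA differed by class. Ligands made up 80.7%, 79.1% and 81.7% of ligand and receptor UMIs in oligodendrocyte-like cells of sham, TBI+PBS and TBI+IL-25, and 69.9% and 70.6% in T cell-like cells of the injured libraries. In endothelial-like cells the shares were 68.6%, 60.1% and 56.1%, and in astrocyte-like cells 52.4%, 58.1% and 55.1%. Choroid plexus-like cells had 41.5%, 34.5% and 36.4%, and ependymal-like cells 30.6% and 36.0% in the injured libraries. Microglia-like cells had a ligand share of 46.3% in sham (exact binomial 95% interval 45.5% to 47.0%), 35.8% after injury with PBS (35.1% to 36.4%) and 36.2% with IL-25 (35.6% to 36.9%). In these cells the ligands summed to 423, 264 and 246 CPM while the receptors summed to 492, 474 and 433 CPM. Over all kept cells the share was 49.8%, 50.0% and 49.4%.

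Known partners were mostly highest in different classes. By mean level, Sema3c was highest in endothelial-like and its receptor Nrp2 in microglia-like cells, Sema4d in oligodendrocyte-like and Plxnb1 in astrocyte-like cells, and Sema3e in ependymal-like and Plxnd1 in endothelial-like cells. Sema7a was highest in endothelial-like and Plxnc1 in monocyte/macrophage-like cells, Efnb2 in neuroblast-like and Ephb4 in endothelial-like cells, and Efnb3 in oligodendrocyte-like and Epha4 in neuroblast-like cells. The listed pairs that shared a highest class by that mean were Sema5a and Plxnb3 in oligodendrocyte-like cells, and Efnb1 with Ephb2 and Efna5 with Epha4 in neuroblast-like cells. Single libraries could differ from the mean. Plxnc1 was highest in astrocyte-like cells of sham, T cell-like cells of TBI+PBS and B cell-like cells of TBI+IL-25. In TBI+PBS this was 27.1 CPM, against 25.7 CPM in monocyte/macrophage-like cells. In TBI+IL-25 it was 40.2 against 33.9 CPM in the same cells, and all receptors together had 2 UMIs in the 26 B cell-like cells. These orders are thus within what few counts can give. Nrp2 was highest in microglia-like, monocyte/macrophage-like and endothelial-like cells in that order, so in TBI+IL-25 it shared its highest class with Sema3c. The last 2 were narrow, at 80.3 against 74.4 CPM in microglia-like cells of TBI+PBS and 85.1 against 76.2 CPM in those of TBI+IL-25. The endothelial-like value comes from 49 cells. All of these are RNA levels in dissociated cells, and contact or binding was not measured.

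After injury, microglia-like cells of the TBI+PBS library had less RNA of several guidance genes than those of sham, Sema4b above all, and astrocyte-like cells had more of Sema7a, Plxnd1 and Sema4c. In microglia-like cells 22 members had at least 50 UMIs over the 2 libraries, and 1 was at least 2-fold higher and 5 at least 2-fold lower in TBI+PBS. Of all genes measured there, 6.07% were higher and 5.93% lower by that fold. The members' median log2 ratio was -0.59 against -0.15 for all genes. Of the 11 ligands measured 1 was higher and 2 lower by 2-fold, and of the 10 receptors 0 and 2.

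Sema4b had the lowest ratio in microglia-like cells. It was at 70.1 CPM in sham against 10.4 and 5.14 CPM in the PBS and IL-25 libraries, and the TBI+PBS to sham ratio was 0.148 (95% interval 0.129 to 0.169, from 1377 and 261 UMIs). The sham level was thus far above both injured ones. In the shared microglia-like clusters 10 and 22, with 156 sham and 148 TBI+PBS cells, the Sema4b ratio was 0.0914 (0.0238 to 0.252). It rests on 43 UMIs in sham and 4 in TBI+PBS. Cluster 0, with 4626 sham and 1039 TBI+PBS cells, was not among the shared clusters. Its Sema4b levels in these 2 libraries, given by cluster below, lay nearer to each other than those of the class. The upper estimate of Sema4b in free RNA from other cells was 6.27, 4.38 and 4.39 CPM in this class, so the TBI+IL-25 level lies near that estimate.

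Other members were also lower in microglia-like cells of TBI+PBS than of sham. Sema6d had a ratio of 0.343 (0.275 to 0.425, 280 against 123 UMIs). Plxna4, a receptor of class 3 semaphorins with neuropilins and of class 6 semaphorins directly, was at 54.1, 25.3 and 31.5 CPM, a ratio of 0.467 (0.423 to 0.516) that was 0.508 when cells were weighed equally and 0.584 in the shared clusters. Its antisense transcript Plxna4os1 went from 33.4 to 14.1 CPM, with a ratio of 0.421 (0.369 to 0.480). Efnb1 was at 54.3, 27.4 and 23.9 CPM, a ratio of 0.504 (0.457 to 0.555), and Sema4g at 37.2 and 19.8 CPM, a ratio of 0.532 (0.474 to 0.597). Plxnb1 was past the fold as well, at 0.480, from 3.31 and 1.59 CPM. Of these, 0.341 and 0.0945 CPM remained when the upper estimate of free RNA was subtracted and the rest rescaled.

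Few members were higher in microglia-like cells of TBI+PBS. Sema6b, a plexin A ligand, was at 1.48 CPM in sham and 7.07 in TBI+PBS, a ratio of 4.79 (3.22 to 7.35, 29 against 178 UMIs), but in the shared clusters the ratio was 0.246 (0.00499 to 2.48), from 4 and 1 UMIs. Sema4a, at 6.11 CPM in sham, had a ratio of 1.81 (1.45 to 2.26) and Epha2 from 8.25 to 14.3 (1.73, 1.43 to 2.09). Nrp2 had a ratio of 1.44 (1.33 to 1.55) in the class and 0.925 (0.553 to 1.55) in the shared clusters. Nrp1 differed little, with a ratio of 1.09 (1.03 to 1.16). The 10 microglia markers summed to 35034, 27595 and 18928 CPM in this class in sham, TBI+PBS and TBI+IL-25, and the 10 astrocyte markers to 604, 383 and 496 CPM; their part in these ratios was not tested.

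**Figure D2:**
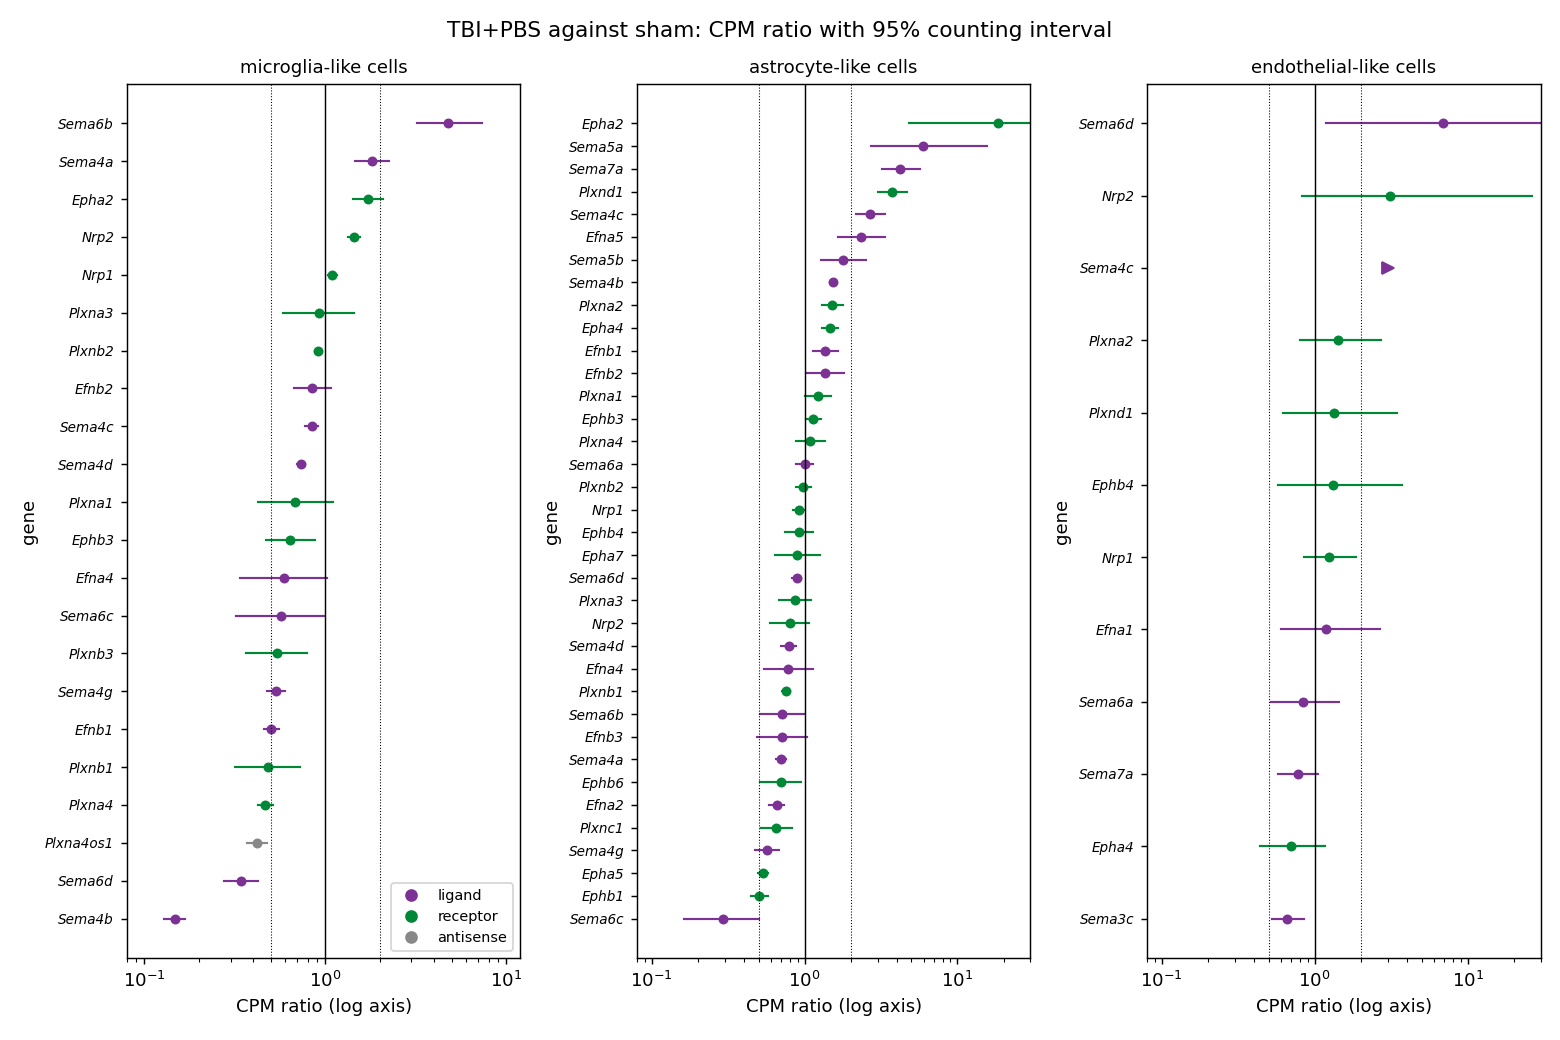
CPM in TBI+PBS divided by CPM in sham (log axis) for each guidance gene measured in microglia-like, astrocyte-like and endothelial-like cells, with 95% counting intervals; purple marks ligands, green receptors and grey antisense transcripts, dotted lines mark 0.5 and 2, and a triangle marks a lower bound. Sema4b lies at 0.148 in microglia-like cells and at 1.53 in astrocyte-like cells.

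In astrocyte-like cells 36 members were measured, and 6 were at least 2-fold higher and 1 at least 2-fold lower in TBI+PBS than in sham, where all genes gave 6.19% and 4.27%. The median log2 ratio was -0.12 for the members and -0.05 for all genes. The higher group held 4 of the 18 ligands and 2 of the 18 receptors. Sema7a was at 4.00, 16.9 and 39.5 CPM in the 3 libraries, and the first ratio was 4.22 (3.19 to 5.66, 59 against 345 UMIs). Plxnd1 was at 6.50, 24.3 and 37.9 CPM, a ratio of 3.74 (3.00 to 4.71), and Sema4c, a Plxnb2 ligand, at 7.59, 20.4 and 23.0 CPM, a ratio of 2.69 (2.18 to 3.35). For these 3 genes both injured libraries lay above sham. Epha2 was at 0.135, 2.49 and 8.34 CPM, a ratio of 18.4 (4.84 to 156) that rests on 2 UMIs in sham and was 4.84 with doublets kept. Efna5 had a ratio of 2.33 (1.65 to 3.34). Sema5a had a ratio of 5.98 (2.72 to 15.5, 7 against 58 UMIs) that turned to 0.299 (0.0057 to 3.73) in the shared clusters, from 3 and 1 UMIs. Of its 58 TBI+PBS UMIs, 31 came from cluster 17, led by Lcn2, Steap4 and Iigp1.

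Within the shared astrocyte-like clusters 3, 8, 11 and 18, with 1814 sham and 2081 TBI+PBS cells, the same direction was seen for most of these genes but not the same size. There the TBI+PBS to sham ratio was 11.7 (3.71 to 59.0) for Sema7a, from 3 and 39 UMIs, 3.71 (2.33 to 6.13) for Efna5, 1.75 (1.19 to 2.61) for Plxnd1 and 1.60 (1.16 to 2.23) for Sema4c. Sema4b was 1.53 times higher in the class (1.47 to 1.61) and 1.25 times (1.15 to 1.36) in these clusters, a direction opposite to that in microglia-like cells. The promoters of 3 genes that these results turn on are shown, since Sema7a and Plxnd1 were both higher in astrocyte-like cells and Sema4b went opposite ways in the 2 glial classes. They are RefSeq stretches of build GRCm38.p6, 250 bases each, 5′ to 3′ on the gene's strand, with Plxnd1 on the minus strand and Sema4b given for 2 start sites. Capitals mark matches on either strand to ACGTG, 1 form of the core letters of hypoxia response elements. The other form, GCGTG, was not searched or marked.
Sema7a chr9:57939862-57940111: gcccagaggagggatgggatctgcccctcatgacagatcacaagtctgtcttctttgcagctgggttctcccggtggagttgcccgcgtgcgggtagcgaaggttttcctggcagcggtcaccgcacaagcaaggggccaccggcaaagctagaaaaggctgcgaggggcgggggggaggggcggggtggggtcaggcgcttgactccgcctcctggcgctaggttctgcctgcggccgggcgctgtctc
Plxnd1 chr6:115995006-115995255: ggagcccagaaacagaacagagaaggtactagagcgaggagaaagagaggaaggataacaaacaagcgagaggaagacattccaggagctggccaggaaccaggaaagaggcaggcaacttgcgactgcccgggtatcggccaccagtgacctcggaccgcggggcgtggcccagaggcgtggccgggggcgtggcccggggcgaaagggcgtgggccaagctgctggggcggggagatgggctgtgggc
Sema4b chr7:80186620-80186869: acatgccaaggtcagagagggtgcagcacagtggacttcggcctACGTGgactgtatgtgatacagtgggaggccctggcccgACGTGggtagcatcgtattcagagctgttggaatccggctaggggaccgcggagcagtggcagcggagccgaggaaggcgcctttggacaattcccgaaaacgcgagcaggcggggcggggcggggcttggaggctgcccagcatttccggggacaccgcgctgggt
Sema4b chr7:80198338-80198587: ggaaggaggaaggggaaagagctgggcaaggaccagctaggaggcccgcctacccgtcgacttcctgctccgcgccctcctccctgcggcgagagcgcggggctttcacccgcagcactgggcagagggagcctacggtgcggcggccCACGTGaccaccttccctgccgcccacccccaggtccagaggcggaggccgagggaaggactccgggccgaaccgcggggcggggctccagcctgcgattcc

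The 2 Sema4b stretches held 2 ACGTG matches each, and in the stretch on chromosome 7 from 80198338 to 80198587 these are 1 palindrome, CACGTG, read once on each strand. The Sema7a and Plxnd1 stretches held no ACGTG match, but both hold the letters GCGTG, which were not searched. Promoters were found for 40 of the 48 members, 53 windows in all. ACGTG was in 11 of the 53 (20.8%) against 19.6% of all 32851 promoters. The AP-1 letters TGANTCA were in 3 of 53 (5.66%, Sema4c, Sema4d and Sema6b) against 7.81% of all, and the STAT letters TTCNNNGAA in 2 of 53 (3.77%, Epha3 and Sema3e) against 8.30%. All 3 motifs were searched on both strands. The members thus held these letters at shares near or below those of all promoters, and a match is a description of the letters only.

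The 1 member at least 2-fold lower in astrocyte-like cells was Sema6c, with a TBI+PBS to sham ratio of 0.292 (0.162 to 0.506), from 47 and 19 UMIs, and 0.748 (0.289 to 1.89) in the shared clusters. Other members had ratios below 1 that did not pass the fold. Epha5 went from 121 to 64.7 CPM, a ratio of 0.535 (0.498 to 0.575), and Ephb1 from 39.6 to 20.1 CPM, a ratio of 0.507 (0.446 to 0.576). In the shared clusters these ratios were 0.572 for Epha5 and 0.480 (0.347 to 0.658) for Ephb1, so both were lower there too. Sema4g had a ratio of 0.569. Efna2 had 0.656 (0.588 to 0.732) and Sema4a 0.701 (0.650 to 0.755), but in the shared clusters they were at 0.990 and 0.987. The 10 microglia markers summed to 1164, 860 and 493 CPM in the astrocyte-like class of sham, TBI+PBS and TBI+IL-25; their part in these ratios was not tested.

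**Figure D3:**
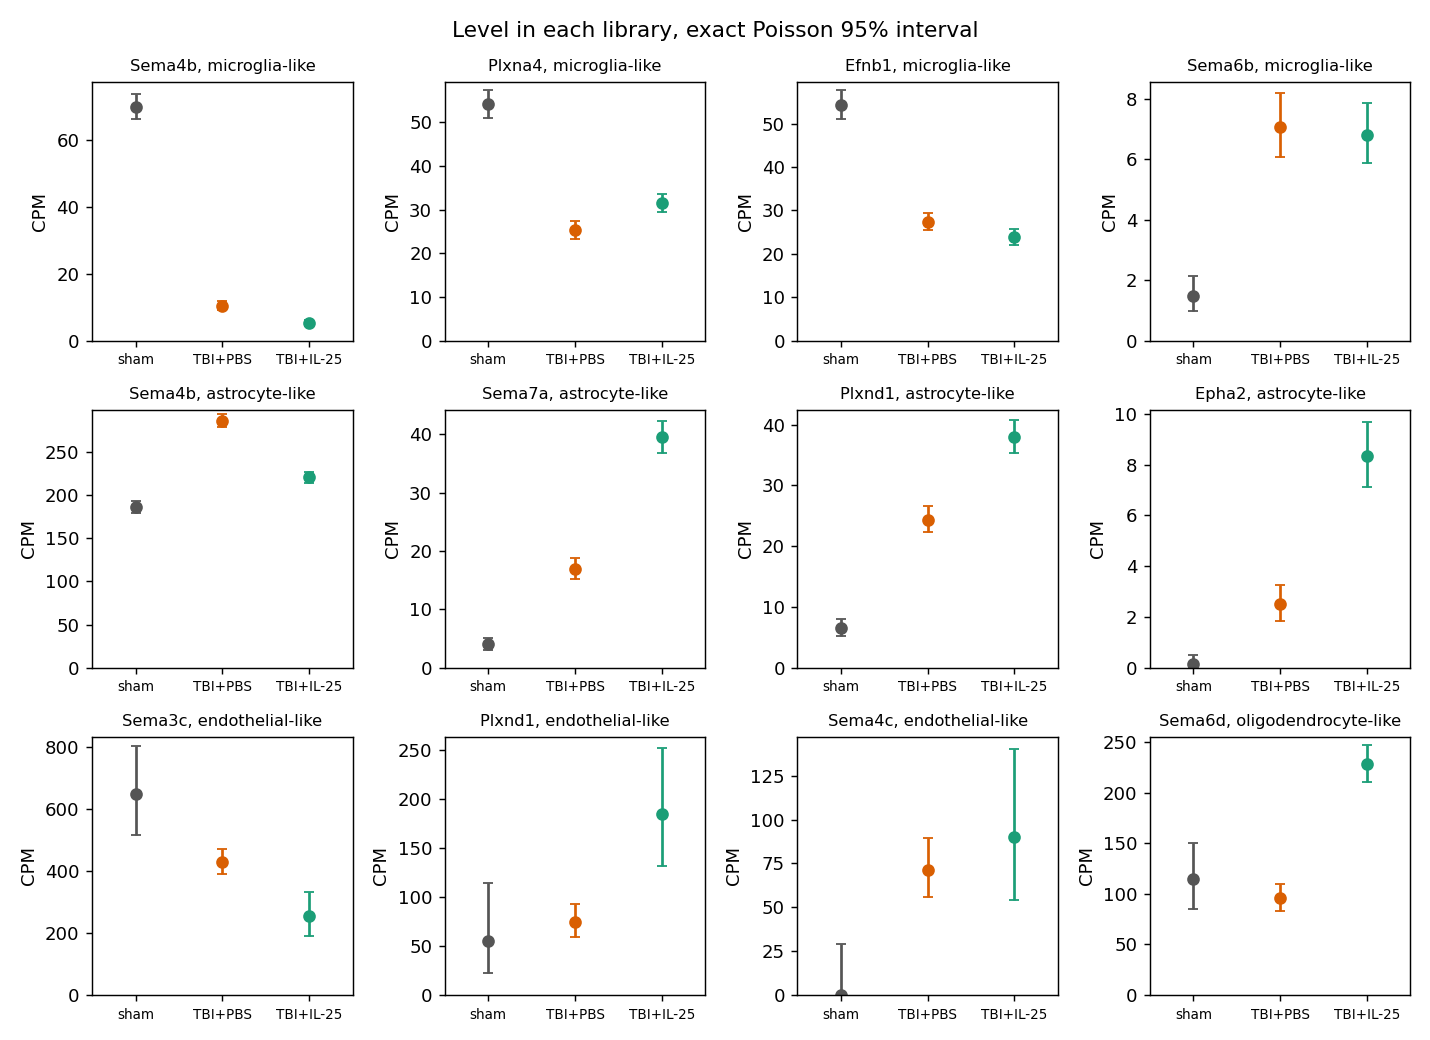
CPM of selected guidance genes in each library (points, with exact Poisson 95% intervals) in microglia-like, astrocyte-like, endothelial-like and oligodendrocyte-like cells. In microglia-like cells Sema4b lies at 70.1, 10.4 and 5.14 CPM, and in astrocyte-like cells Sema7a lies at 4.00, 16.9 and 39.5 CPM in sham, TBI+PBS and TBI+IL-25.

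Endothelial-like cells were few in sham, which limited the comparison to 12 members. Of these 3 were at least 2-fold higher and 0 lower in TBI+PBS, where all genes gave 8.42% and 3.05%, and the median log2 ratio was 0.36 against 0.03. Sema4c had 0 UMIs in sham against 75 in TBI+PBS, a ratio of 3.01 with 3 counts put in for sham. It stood at 71.3 and 89.8 CPM in the 2 injured libraries. Sema6d had 1 UMI in sham and 57 in TBI+PBS, a ratio of 6.86 (1.18 to 276). The sham level of 7.90 CPM lay under the upper estimate of 9.29 CPM for free RNA. The Sema6d ratio was 1.97 with free RNA subtracted, 3.10 at resolution 0.5 and 3.65 with cells assigned by their own marker scores. Nrp2, with 2 and 52 UMIs, had a ratio of 3.13 whose interval of 0.824 to 26.5 includes 1. Sema3c was lower, at a ratio of 0.664 (0.524 to 0.850, 82 against 452 UMIs). The 8 endothelial markers were all present in each library and summed to 13214, 15465 and 15552 CPM. In the same cells the 10 microglia markers summed to 3886, 1708 and 2407 CPM and the 7 pericyte markers to 340, 1065 and 2194 CPM, with the pericyte markers Kcnj8 and Abcc9 at 0 in sham; their part was not tested.

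In the other classes few members passed the fold after injury. In neuroblast-like cells 2 of 22 were at least 2-fold higher and 0 lower, against 0.608% and 0.41% of all genes. These were Sema3c, with 20 and 49 UMIs and a ratio of 2.74 (1.60 to 4.87), and Plxnc1, with 17 and 34 UMIs and a ratio of 2.24 (1.22 to 4.27). Epha5 had a ratio of 1.71 (1.10 to 2.68) there. In oligodendrocyte-like cells 0 of 11 passed in either direction, against 6.34% and 1.01%, and Efnb3 had a ratio of 0.784 (0.682 to 0.904). In choroid plexus-like cells 0 of the 2 measured passed, against 1.55% and 1.44%.

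Between the 2 injured libraries, TBI+IL-25 against TBI+PBS, microglia-like cells differed in few guidance genes. Of 23 members measured, 0 were at least 2-fold higher and 1 was at least 2-fold lower, against 4.08% and 3.53% of all genes, with a median log2 ratio of -0.05 for the members and -0.08 for all. This comparison and the first one share the TBI+PBS library, so a chance value in it moves both ratios of a gene in opposite directions. Sema4b was the lower one, at a ratio of 0.496 (0.402 to 0.610), and lay on the other side of the fold at 0.515 with doublets kept and 0.775 (0.576 to 1.04) in the shared clusters 2, 7, 14, 16 and 20. Nrp1, at 120 and 72.9 CPM, had a ratio of 0.606 (0.573 to 0.642), and 0.597 (0.552 to 0.644) in the shared clusters. Plxnb3 had a ratio of 0.555 (0.337 to 0.900), Efnb2 0.729, Sema4c 0.790 (0.727 to 0.859) and Efnb1 0.873 (0.784 to 0.972). Higher values were found for the receptor Epha2, at 14.3 and 23.3 CPM with a ratio of 1.64 (1.44 to 1.87) in the class and 1.67 (1.41 to 1.99) in the shared clusters. Plxna3 had a ratio of 1.60 (1.10 to 2.35), Plxna4 1.25 (1.12 to 1.38) and Plxna4os1 1.30 (1.13 to 1.49).

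In astrocyte-like cells 3 of 36 members were at least 2-fold higher and 3 at least 2-fold lower in TBI+IL-25 than in TBI+PBS, against 3.83% and 9.57% of all genes. The median log2 ratio was -0.18 for the members and -0.19 for all genes. Sema7a had a ratio of 2.34 (2.06 to 2.66, 345 against 804 UMIs) and 2.24 (1.57 to 3.23) in the shared clusters 8 and 17. Efnb1 was at 16.5 and 34.6 CPM, a ratio of 2.09 (1.84 to 2.39), with 1.91 when cells were weighed equally and 1.57 in the shared clusters. Epha2 had a ratio of 3.35 (2.43 to 4.67, 51 against 170 UMIs), but 1.32 (0.602 to 2.85) in the shared clusters. Epha7 had 1.75 (1.33 to 2.33) in the class and 0.712 (0.160 to 2.55) in the shared clusters, and Plxnd1 had 1.56 (1.39 to 1.75) and 1.13. Plxna2 had 1.55 (1.38 to 1.74) in the class and 1.27 (0.976 to 1.64) in the shared clusters. Among the lower members, Efna2 went from 31.0 to 14.8 CPM, a ratio of 0.476 (0.414 to 0.547) in the class and 0.361 in the shared clusters, but not past the fold at 0.523 with cells weighed equally and 0.544 with median-of-ratios scaling. Efna4 had 0.383 (0.229 to 0.621), from 63 and 24 UMIs. Nrp2 had 0.378 (0.253 to 0.554), from 101 and 38 UMIs, and 1.12 with doublets kept and 0.532 by own marker score. Free RNA could account for up to 2.71 of its 4.94 CPM in TBI+PBS and up to 2.14 CPM in TBI+IL-25, where the level was 1.86. Epha4 had 0.581 (0.520 to 0.647), Ephb4 0.592 and Plxna4 0.559 in the class. In the shared clusters they were at 0.788 (0.492 to 1.24), 0.801 (0.335 to 1.79) and 1.17 (0.407 to 3.18), intervals that include 1.

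**Figure D4:**
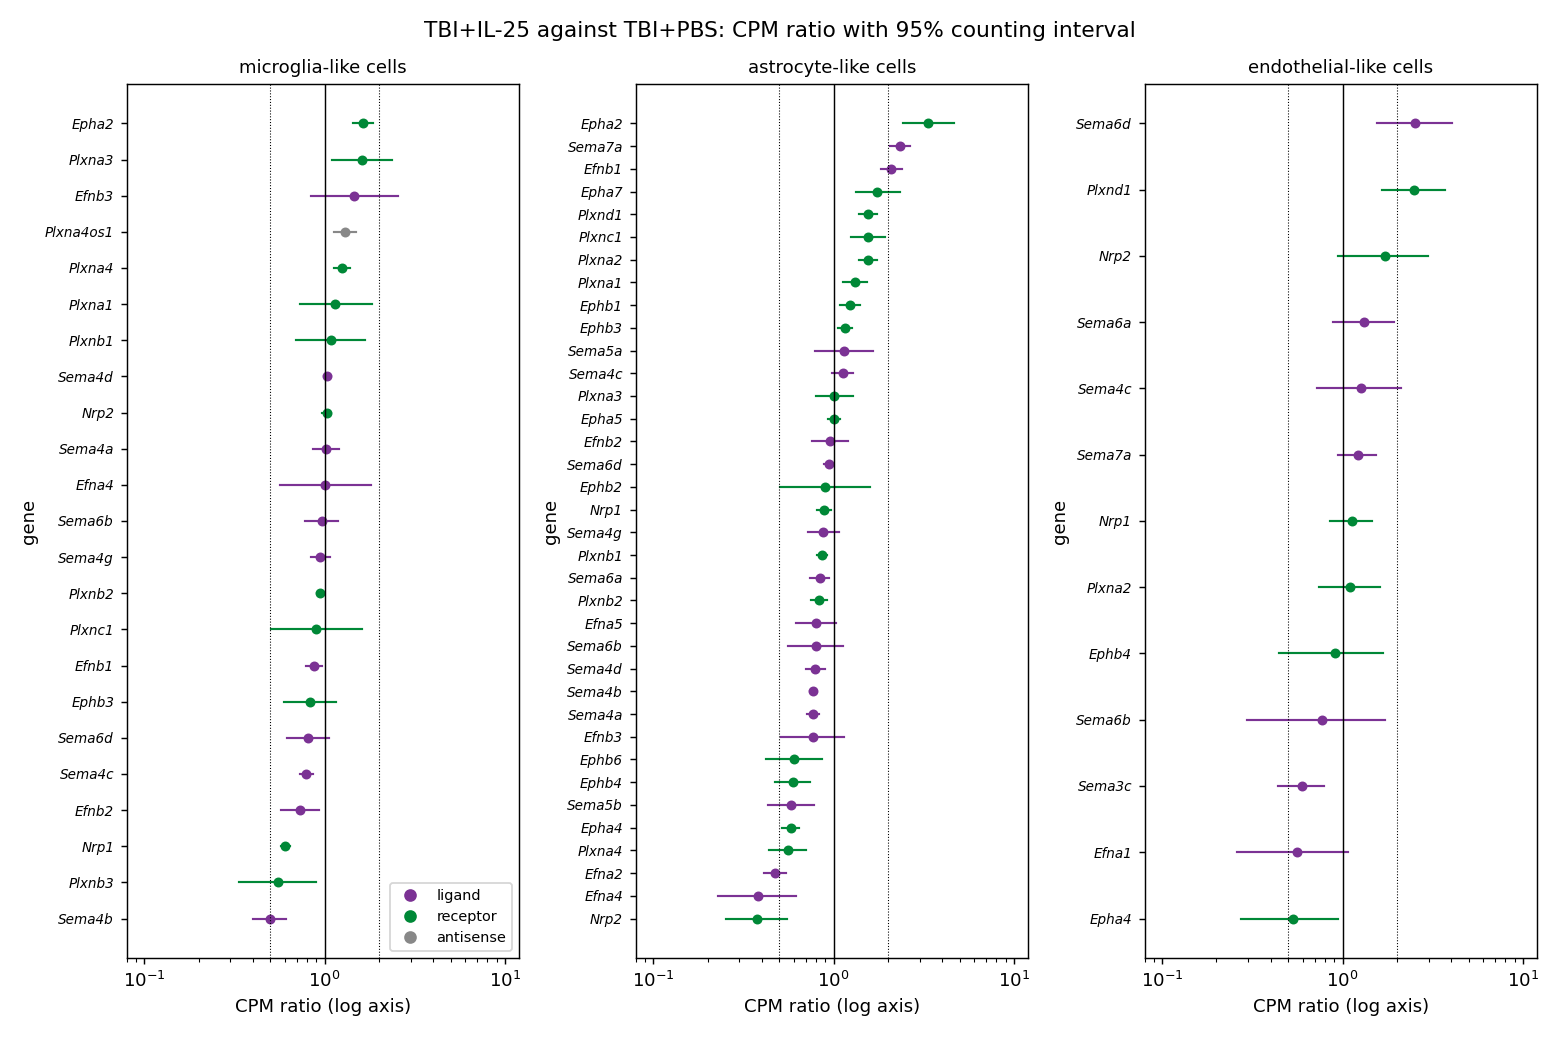
CPM in TBI+IL-25 divided by CPM in TBI+PBS (log axis) for each guidance gene measured in microglia-like, astrocyte-like and endothelial-like cells, with 95% counting intervals; colours and dotted lines are as in the plot of the injury ratios. Most members lie between 0.5 and 2, and Epha2, Sema7a and Efnb1 lie above 2 in astrocyte-like cells.

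In endothelial-like cells 2 of 13 members were at least 2-fold higher and 0 lower in TBI+IL-25, against 4.1% and 8.01% of all genes, with a median log2 ratio of 0.17 against -0.04. Plxnd1 was at 55.3, 74.2 and 184 CPM in sham, TBI+PBS and TBI+IL-25, a TBI+IL-25 to TBI+PBS ratio of 2.49 (1.65 to 3.70) from 78 and 39 UMIs. Sema6d was at 7.90, 54.2 and 137 CPM, a ratio of 2.53 (1.56 to 4.02) from 57 and 29 UMIs, and 1.83 when cells were assigned by their own marker scores. The upper estimate of Sema6d from free RNA was 9.47 CPM in TBI+IL-25. Sema3c was lower again, at 0.594 (0.439 to 0.789), and Epha4 had a ratio of 0.530 (0.274 to 0.940). One cluster, with 219 and 49 cells, holds this class, so each value rests on few cells.

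In oligodendrocyte-like cells 3 of 15 members were at least 2-fold higher and 2 at least 2-fold lower in TBI+IL-25 than in TBI+PBS, against 4.87% and 5.89% of all genes, and the median log2 ratio was 0.30 for the members and 0.00 for all. Nrp2 was at 0, 12.0 and 36.4 CPM in sham, TBI+PBS and TBI+IL-25, a ratio of 3.04 (1.96 to 4.88) between the injured libraries. Sema6d, at 95.7 and 229 CPM, had a ratio of 2.39 (2.04 to 2.81), and Sema7a, with 76 and 206 UMIs, had 2.17 (1.66 to 2.86). Sema5a went from 24.8 to 3.68 CPM, a ratio of 0.148 (0.0672 to 0.293), and Efna2 had 0.484 (0.323 to 0.717). Sema4d had 0.669 (0.590 to 0.758). The cells differed in other ways: the class (cluster 12) held 43, 216 and 631 cells with a median of 10384, 8400.5 and 3917 UMIs, the 8 oligodendrocyte markers summed to 70180, 55288 and 33986 CPM, and the 8 neuroblast markers to 264, 517 and 186 CPM. Their part in these ratios was not tested.

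In monocyte/macrophage-like cells (248 with PBS, 107 with IL-25) 0 of 8 members were higher and 1 lower by 2-fold, against 2.51% and 6.42%. Nrp1 was the lower one, at 87.1 and 33.9 CPM with a ratio of 0.389 (0.236 to 0.609), and Nrp2 had 0.623 (0.412 to 0.912). Plxnb2 had a ratio of 1.48 (1.12 to 1.94), Sema4a 1.43 (1.02 to 1.98) and Sema4d 1.41 (1.07 to 1.84). In these cells the 8 border-associated macrophage markers summed to 2548 and 861 CPM, and the 7 dendritic cell markers to 98.3 and 727 CPM, so the make-up of the class moved with Nrp1; its part was not tested. In neuroblast-like cells 0 of 20 members were higher and 1 lower, against 1.67% and 3.91%. That member was Sema3c, with 49 UMIs with PBS against 1 with IL-25, a ratio of 0.0445 (0.0011 to 0.260). Sema4b had 0.550 (0.340 to 0.860), Efna2 0.601 and Epha3 1.51 (1.01 to 2.24) there. In T cell-like, ependymal-like, choroid plexus-like and fibroblast-like cells 2, 2, 2 and 1 members were measured and 0 passed the fold in either direction, where all genes gave 3.17% and 5.89%, 3.03% and 3.55%, 4.21% and 2.41%, and 5.3% and 5.59%. In B cell-like cells 0 members were measured, and all genes gave 9.23% and 7.31%. Sema6d in ependymal-like cells had a ratio of 1.77 (1.13 to 2.82).

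Against sham directly, a comparison that shares the sham library with the first one and the IL-25 library with the second, the members were called as follows. In microglia-like cells of TBI+IL-25, 2 of 22 members were at least 2-fold higher, against 10.1% of all genes, and 4 lower, against 14.1%. The higher ones were Sema6b, at 4.62 (3.11 to 7.08), and Epha2, at 2.83 (2.38 to 3.38), and the lower ones were Sema4b, at 0.0733 (0.0613 to 0.0871), Sema6d, at 0.278, Plxnb3, at 0.299, and Efnb1, at 0.440. In astrocyte-like cells 7 of 36 were higher and 6 lower, against 10.9% and 20.2%. The higher ones were Epha2, Sema7a (9.87, 7.57 to 13.1), Sema5a, Plxnd1 (5.83, 4.71 to 7.29), Sema4c (3.03), Efnb1 (2.87) and the class 6 semaphorin receptor Plxna2 (2.35), and the lower ones were Sema6c, Efna4, Nrp2, Efna2 (0.312), Ephb6 and Sema4g. In oligodendrocyte-like cells 3 of 13 were higher and 0 lower, against 14.2% and 5.74%. Nrp2, with 0 and 99 UMIs, was at 5.42 with 3 counts put in for sham. Sema7a was at 2.11 (1.27 to 3.77) and Sema6d at 2.00, with 51 and 622 UMIs. In endothelial-like cells 0 of 4 were higher and 1, Sema3c at 0.394 (0.274 to 0.563), was lower, against 12.3% and 9.58%. In neuroblast-like cells 0 of 17 passed in either direction, against 1.57% and 4.44%, and in choroid plexus-like cells 0 of 2, against 5.14% and 2.38%.

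Levels also differed between clusters of 1 class. Among microglia-like clusters, Nrp2 was highest in cluster 16, led by Spp1, Msr1, Lpl and Lilrb4a, at 165 and 195 CPM in the PBS and IL-25 libraries, against 30.1 to 85.8 CPM in the others. Sema4b was highest in clusters 0 and 22 of sham, at 72.7 and 78.6 CPM, and in cluster 0, led by P2ry12, it was at 29.0 and 28.4 CPM after injury with PBS and with IL-25. In cluster 10, led by interferon-induced genes such as Ifit2, Ifit3 and Isg15, Sema4b was at 48.6, 5.79 and 7.63 CPM. In clusters 5, 7, 14 and 16 Sema4b was between 1.31 and 3.84 CPM. Among astrocyte-like clusters, Ephb1 separated clusters 3 and 11, led by Agt and Sfrp5, from the rest. It had 1.14 and 2.26 CPM in cluster 3 of sham and TBI+PBS, with 2 UMIs in the 30 cells of TBI+IL-25 there, and 0 UMIs in cluster 11 (at most 1.78 CPM in the 876 cells of TBI+IL-25), against 53.7 CPM in sham and 33.2 in TBI+PBS in cluster 6. Nrp1 ran the other way, at 110 and 104 CPM in cluster 3 of sham and TBI+PBS and at 42.1 and 41.0 CPM in cluster 6. Sema7a was at 51.4 CPM in cluster 1 of TBI+IL-25, led by Lif and Hbegf, at 24.9 CPM in cluster 9 of TBI+PBS and at 6.36 and 9.27 CPM in cluster 6. Plxna2 was highest in cluster 17 at 57.3 and 61.8 CPM in the 2 injured libraries. These clusters were formed on other genes of the same cells, so the contrasts are descriptions.

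**Figure D5:**
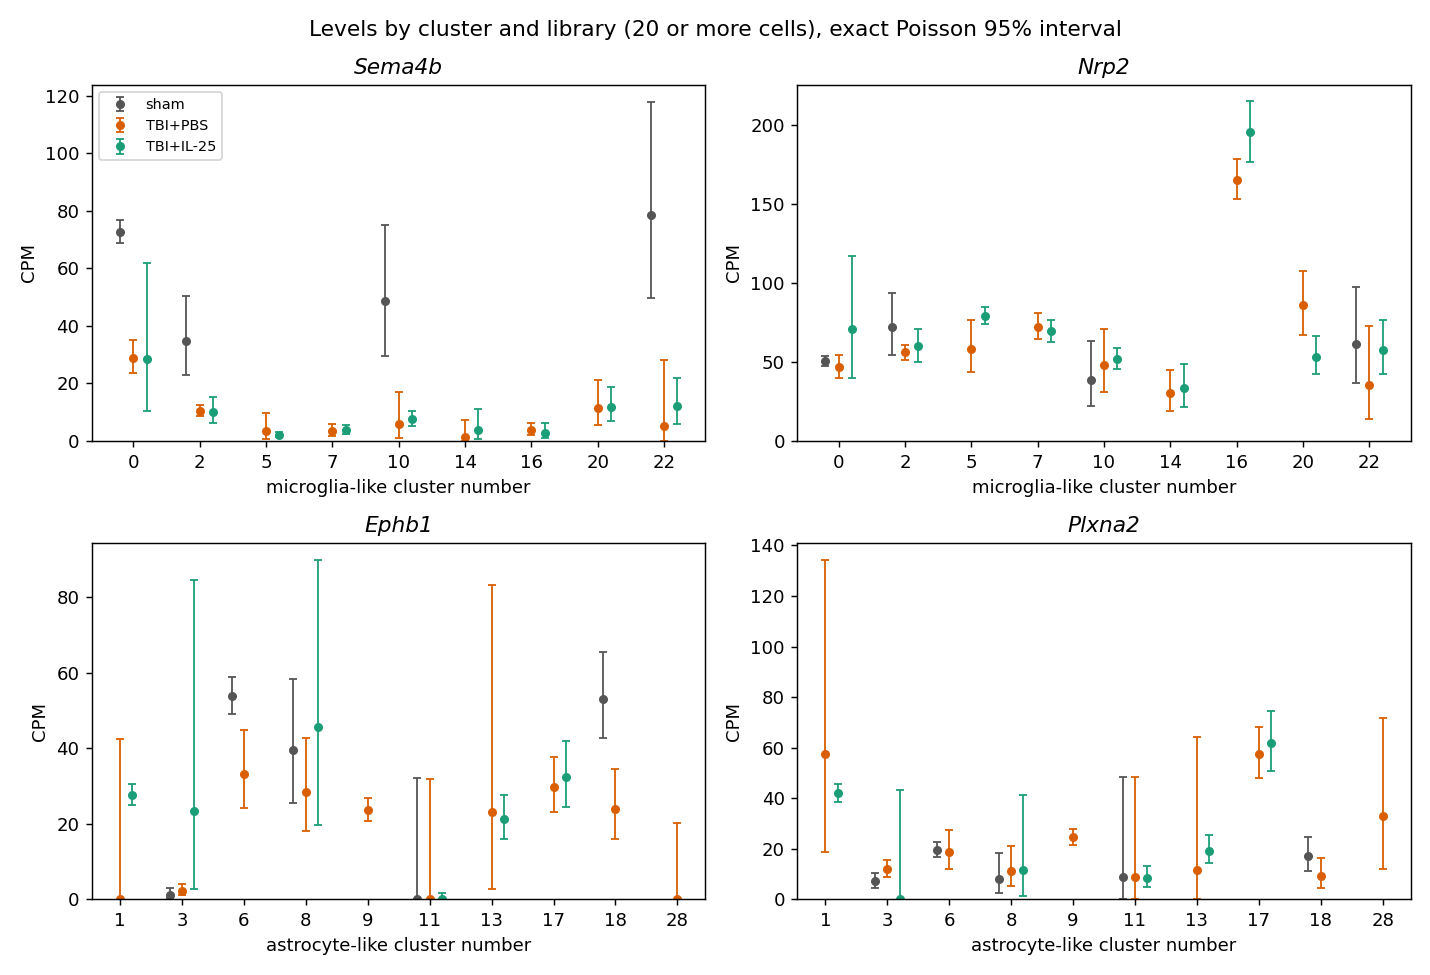
CPM of Sema4b and Nrp2 in the microglia-like clusters and of Ephb1 and Plxna2 in the astrocyte-like clusters, by library, for clusters with at least 20 cells of that library, with exact Poisson 95% intervals. Nrp2 is highest in cluster 16, at 165 and 195 CPM, and Ephb1 is at 0 in cluster 11 and at 1.14 and 2.26 CPM in cluster 3 of sham and TBI+PBS.

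Lists of other pathway genes were set beside the members. They held 45 co-receptors and intracellular partners of plexins, neuropilins and Ephs, and 17 guidance genes of the netrin, Slit and repulsive guidance families. In microglia-like cells 1 of 33 partners was at least 2-fold higher and 1 lower in TBI+PBS than in sham, against 6.07% and 5.93% of all genes. Cd72, known in lymphocytes as a Sema4d receptor, went from 6.21 to 238 CPM, a ratio of 38.3, and Tiam1 had a ratio of 0.432. In astrocyte-like cells 5 of 42 partners were higher and 0 lower, against 6.19% and 4.27%. They were Met, a co-receptor of B plexins (10.0, 4.67 to 25.5), Cd72 (8.35), Dpysl3, a mediator of semaphorin signals (3.84), the adaptor Nck2 (2.74) and Arhgef12, which binds B plexins (2.30, 2.21 to 2.39). Cd72 was at 3.96 CPM there in TBI+PBS, and free RNA could reach 6.55% of its 113 CPM over all kept cells, so that level is not above background. Of 11 other guidance genes measured in astrocyte-like cells, the netrin receptor Unc5b was higher at 5.70 (3.61 to 9.46), and Dcc and Robo2 were lower at 0.373 and 0.476. In microglia-like cells 0 of 3 passed. In endothelial-like cells 2 of 17 partners were higher and 2 lower, against 8.42% and 3.05%, and the lower ones were Chn2 (0.293) and Trem2 (0.334), a microglial gene.

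Between the injured libraries, 0 of 34 partners were higher and 1, Vav3 at 0.462, was lower in microglia-like cells of TBI+IL-25, against 4.08% and 3.53% of all genes. In astrocyte-like cells 3 of 41 were higher, Tiam1 (2.27), Met (2.18) and Nck2 (2.04), and 3 were lower, Rnd1 (0.369), Grip1 (0.475) and Rnd2 (0.491), against 3.83% and 9.57%. Unc5b was higher again at 2.91 (2.43 to 3.49), the 1 of 11 other guidance genes to pass. In oligodendrocyte-like cells 1 of 20 partners was higher, Arhgef12 at 4.06 (3.57 to 4.64), and 4 were lower, from Dpysl5 at 0.0948 and Rnd2 at 0.141 to Gipc1 at 0.399 and Chn1 at 0.427, against 4.87% and 5.89%. Of 7 other guidance genes there, Dcc was higher at 2.5. In endothelial-like cells 2 of 16 partners were higher, both microglial genes (Trem2, and Tyrobp at 2.34), and Dpysl2 was lower at 0.458, against 4.1% and 8.01%.

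Over all kept cells, fewer cells of a type and less RNA per cell cannot be told apart. Of 44 members measured, 6 were at least 2-fold higher and 2 lower in TBI+PBS than in sham, against 7.52% and 4.67% of all genes, and of 46 measured 1 was higher and 5 were lower in TBI+IL-25 than in TBI+PBS, against 4.02% and 8.07%. Of 44 measured, 5 were higher and 7 lower in TBI+IL-25 than in sham, against 10.1% and 17.1%. Sema3c, mostly an endothelial-like RNA, was at 2.96, 9.61 and 1.44 CPM in sham, TBI+PBS and TBI+IL-25, with ratios of 3.25 (2.65 to 4.02) and 0.150 (0.117 to 0.190), while its level within endothelial-like cells went from 648 to 430 and 255 CPM. Those cells numbered 36, 219 and 49. Sema4b had a ratio of 1.02 (0.981 to 1.06) over all cells in TBI+PBS against sham, where its 2 main classes moved in opposite directions.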

How the data were processed

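The 3 libraries were deposited as filtered gene by cell matrices of UMI counts, made by the authors, per the file headers, with Cell Ranger 7.2.0 for the IL-25 library and 7.1.0 for the others. In the submitters' processing notes stand GRCm39, Seurat 4.4.0, bcl2fastq 5.0.1 and Cell Ranger 7.2.0. Whether counting used strand is not given in the sources used here. The counts are not normalized. Every matrix barcode had at least 500 UMIs, and the tables held 0 other per-sample columns.

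A minimum of 500 UMIs and 300 genes and a maximum of 20% mitochondrial UMIs removed 18, 43 and 55 barcodes. Doublets with a Scrublet score above 0.2 were left out, 211, 301 and 635 (2.36%, 2.83% and 4.46%). The score's automatic threshold would have marked 86, 288 and 701. Cells were clustered with scanpy 1.11.5 and leidenalg 0.10.2 (Python 3.11.15) on 2000 variable genes without the guidance genes, 30 components, 15 neighbours and resolution 1, into 31 clusters. Clusters were named from marker lists where their leading genes allowed it, and cell names rebuilt this way may differ from the study's.

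UMIs were summed per class and library. Levels carry exact Poisson 95% intervals and ratios exact 95% intervals from SciPy 1.17.1. Genes needed 50 UMIs over both libraries in the class, and a ratio counted as higher or lower at 2-fold. A count of 0 was set to 3 counts in ratios. PCR duplicates are collapsed by UMI, and intervals cover counting error only. With 1 library per group no test between groups was made. An upper estimate of free RNA came from marker genes of other classes, with the sum of all kept cells of a library standing for its free RNA. RNA of cells that were lost before capture is not in that sum, so the estimate is not a strict maximum. The scripts were tested on simulated counts.

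Named genes were, per comparison, the first 6 higher and 6 lower in microglia-like, astrocyte-like and endothelial-like cells (3 and 3 elsewhere), ranked by the bound of the ratio interval nearest to 1, the 5 highest members of each class, members 5 times above the next class, and listed ligand-receptor pairs. Other genes named to complete a count were chosen after their values were seen. The members and lists were chosen with earlier results of these data known. Promoters came from RefSeq tables of GRCm38.p6, a build other than the one in the processing notes. Alternatives were cluster resolution, doublets, cell assignment, depth, scaling, the count minimum, free RNA, the fold and shared clusters.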

Additional observations from a re-analysis of the deposited data

Results flagged for a closer look

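Some genes had ratios on opposite sides of 1 in different classes under the same comparison, with counting intervals that did not include 1 on either side. The difference between classes was not tested, since each condition is 1 library. For TBI+PBS against sham, Sema4b was 1.53 in astrocyte-like and 0.148 in microglia-like cells. Sema4c was 2.69 in astrocyte-like cells, 3.01 in endothelial-like cells with 3 counts put in for the 0 of sham, and 0.843 in microglia-like cells. Sema6b was 4.79 in microglia-like and 0.712 in astrocyte-like cells. Sema6d was 6.86 in endothelial-like cells, 0.886 in astrocyte-like and 0.343 in microglia-like cells. The first of these was 1.97 with free RNA subtracted. The astrocyte-like ratio was 1.07 (0.966 to 1.18) in the shared clusters, so it was not below 1 there. For TBI+IL-25 against TBI+PBS, Efnb1 was 2.09 in astrocyte-like and 0.873 in microglia-like cells. In the same comparison Sema6d was 2.53 in endothelial-like and 0.938 in astrocyte-like cells, the last at 1.05 (0.833 to 1.33) in the shared clusters.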

How the results depend on the processing

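No paired analysis was possible because each group is 1 library with 1 replicate number, and for the same reason no replicate could be left out. Of the named ratios past the fold, 3 changed direction. In shared clusters Sema5a in astrocyte-like cells was 0.299 and Sema6b in microglia-like cells 0.246 (TBI+PBS against sham), and with doublets kept Nrp2 in astrocyte-like cells was 1.12 (TBI+IL-25 against TBI+PBS); the cause was not tested. Of those not past the fold, 3 more did so in shared clusters: Nrp2 in microglia-like cells (0.925, TBI+PBS against sham), and Epha7 (0.712) and Plxna4 (1.17) in astrocyte-like cells (TBI+IL-25 against TBI+PBS). The share over all genes was computed at the main setting only. Member counts under the other settings therefore have no share beside them and show only how the calls moved. For TBI+PBS against sham, the 1 higher member in microglia-like cells became 2 with median-of-ratios scaling and with free RNA subtracted, 6 with no count minimum, 3 at 1.5-fold and 0 in shared clusters. The 5 lower ones became 3 (median-of-ratios scaling), 11 (no minimum), 11 (1.5-fold), 1 (3-fold) and 0 (shared clusters). In astrocyte-like cells the 6 higher became 3 with 200 UMIs and 1 in shared clusters. The 1 lower became 3 with doublets kept, 2 by own marker score, 0 with 200 UMIs, 4 with no minimum, 3 with free RNA subtracted and 6 at 1.5-fold. In endothelial-like cells the 3 higher became 0 with 200 UMIs, and the 0 lower became 15 with no minimum and 1 at 1.5-fold. For TBI+IL-25 against TBI+PBS, the 0 higher in microglia-like cells became 2 with no minimum and at 1.5-fold. The 1 lower became 0 at resolution 2, with doublets kept, with median-of-ratios scaling, at 3-fold and in shared clusters, 2 with cells weighed equally and with free RNA subtracted, 6 with no minimum and 3 at 1.5-fold. In astrocyte-like cells the 3 higher became 5 with no minimum, 7 at 1.5-fold, 1 at 3-fold and 1 in shared clusters, and the 3 lower became 1 with 200 UMIs, 8 at 1.5-fold and 0 at 3-fold and in shared clusters. In endothelial-like cells the 2 higher became 0 with 200 UMIs and at 3-fold and 18 with no minimum, and the 0 lower became 2 at resolution 0.5, 3 by own marker score, 1 with cells weighed equally and 3 at 1.5-fold. Shared clusters hold fewer cells, so fewer members reach the count minimum there. Counting the shallow unnamed cluster as astrocyte-like, an alternative chosen after seeing the data, changed the direction of 0 of 24 named ratios. In shared clusters 5 of 45 named ratios changed direction and 9 of 19 that had passed the fold did not. With 200 UMIs required, 0 members passed in endothelial-like cells in the higher direction in either comparison.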
